A study of Homo sapiens with 9 samples.

Results

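The transcripts described here belong to 10 genes of the hypoxia response, taken by name from 27693 genes. Poly(A) RNA was sequenced from Caco-2 cells, a human colon adenocarcinoma line used as a model of the gut epithelium. The 10 genes are the HIF alpha subunits HIF1A and EPAS1 and 8 genes known as HIF targets: VEGFA, CA9, BNIP3, ADM, NDRG1, EGLN3, P4HA1 and PDK1. Every library came from cells that had 10 µM lovastatin, a statin, for 48 h in aMEM medium whose serum had been depleted of lipid. In 3 libraries the cells also had 10 µM SGA360, in another 3 they also had 10 µM SGA315, and in the last 3 they had lovastatin alone. Per the labels both compounds are selective AHR ligands (AHR, the aryl hydrocarbon receptor, is a transcription factor switched on by small molecules), and the doses and the time were matched. Cells without lovastatin, and cells kept at low oxygen, were not analysed here, so no value below says how far the pathway was induced or repressed by lovastatin itself. Whether replicates were grown as separate cultures is not said in the labels, so the p-values reflect the spread of these libraries alone, which may be technical.

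HIF is a pair of proteins, an alpha subunit and ARNT, that binds DNA and switches on genes for oxygen supply, glycolysis and acid handling. When oxygen is present, prolyl hydroxylases of the EGLN family mark the alpha subunit, the VHL ubiquitin ligase recognises the mark, and the protein is destroyed, so that HIF activity is set mostly by protein stability and much less by the level of the alpha transcripts. AHR uses the same partner, ARNT, and the short DNA cores that the complexes of HIF and of AHR bind share most of their letters. In gut epithelium, HIF1A is known for glycolysis and barrier genes and EPAS1 (HIF2 alpha) for genes of iron uptake.

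The stretches just before the transcription starts of 5 of the 8 target genes are shown because the HIF core lies in them. Each is the 250 bases before the start, from RefSeq on GRCh38.p14 and given 5′ to 3′ on the gene's own strand, with every ACGTG or GCGTG core of either strand in capitals (a core on the opposite strand reads CACGT or CACGC). The windows are chr2:172555840-172556089 on the plus strand for the second PDK1 start, chr10:131981924-131982173 on the minus strand for BNIP3, chr11:10304823-10305072 on the plus strand for ADM, chr10:73096867-73097116 on the minus strand for P4HA1 and chr9:35673678-35673927 on the plus strand for CA9.
PDK1: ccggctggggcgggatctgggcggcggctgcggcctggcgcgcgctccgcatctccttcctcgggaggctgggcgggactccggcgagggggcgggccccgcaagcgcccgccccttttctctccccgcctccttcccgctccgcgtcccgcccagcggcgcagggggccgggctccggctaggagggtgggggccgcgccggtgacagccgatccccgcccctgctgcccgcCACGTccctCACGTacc
BNIP3: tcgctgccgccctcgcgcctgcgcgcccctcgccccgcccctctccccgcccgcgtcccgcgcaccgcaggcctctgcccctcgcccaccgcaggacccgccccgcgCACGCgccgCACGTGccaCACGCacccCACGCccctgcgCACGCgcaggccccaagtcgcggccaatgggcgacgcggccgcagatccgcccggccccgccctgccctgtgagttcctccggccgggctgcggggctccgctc
ADM: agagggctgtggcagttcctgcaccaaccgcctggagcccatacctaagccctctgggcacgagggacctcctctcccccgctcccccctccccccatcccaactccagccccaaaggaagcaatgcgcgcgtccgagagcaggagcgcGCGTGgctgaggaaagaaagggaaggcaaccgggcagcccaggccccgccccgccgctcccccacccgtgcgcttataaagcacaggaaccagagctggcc
P4HA1: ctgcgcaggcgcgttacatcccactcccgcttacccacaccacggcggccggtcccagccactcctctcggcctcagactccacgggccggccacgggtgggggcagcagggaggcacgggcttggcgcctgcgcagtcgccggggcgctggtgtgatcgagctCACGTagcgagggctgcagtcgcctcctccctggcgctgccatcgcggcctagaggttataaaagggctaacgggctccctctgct
CA9: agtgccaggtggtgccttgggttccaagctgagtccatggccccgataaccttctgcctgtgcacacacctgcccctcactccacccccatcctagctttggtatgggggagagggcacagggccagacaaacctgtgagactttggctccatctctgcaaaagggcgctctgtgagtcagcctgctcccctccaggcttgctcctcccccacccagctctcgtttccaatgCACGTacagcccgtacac
PDK1 had 2 cores, which began 17 and 8 bases before the start, and BNIP3 had 6, between 143 and 104 bases before it, of which 2 overlap in the palindrome CACGTG. ADM had 1 core (101 bases before the start), P4HA1 had 1 (86 bases) and CA9 had 1 (18 bases). Windows of 8 of the 10 genes were used, those of VEGFA and NDRG1 were not, and 7 of the 8 genes held at least 1 core, EGLN3 being the one without. HIF1A and PDK1 had 2 windows each, and the second HIF1A window and the first PDK1 window held 0 cores. A gene was counted if any of its windows held a core, whereas the shares that follow are per window, so the 2 are not directly comparable. Of all 35116 windows of the same length, 43.2% held ACGTG or GCGTG, 18.5% held ACGTG, 32.2% held GCGTG and 6.34% held CACGTG. The longer AHR motif TNGCGTG, which contains GCGTG, was in 4.52% of all windows and in 0 of the 10 windows of these genes. The shorter core inside this motif is the core of AHR as well as of HIF. It was present in windows of HIF1A (1 match), EPAS1 (1), BNIP3 (4) and ADM (1), and in 0 windows of PDK1, P4HA1 and CA9. These matches thus do not separate the HIF core from the AHR core. A match is a description of the letters and not a bound site.

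Depth, with 1 transcript entry per gene, was 12343142 to 16882559 counts in SGA360 libraries, 12894188 to 14747292 in SGA315 libraries and 14141241 to 16316269 in libraries with lovastatin alone. Replicates lay close together (biological coefficient of variation 2.16%), and the closest neighbour of each of the 9 libraries was one from its own group. Markers of the gut epithelium (9 genes, 8 tested) summed to 4503 to 4910 CPM (counts scaled to a common library size) with SGA360, 3092 to 3220 CPM with SGA315 and 6274 to 6366 CPM with lovastatin alone, while KRT20, a defining marker of the list, was at or near 0. The keratins KRT8 and KRT18 held most of that sum: KRT8 averaged 2628 CPM with SGA360, 1491 CPM with SGA315 and 3475 CPM with lovastatin alone, and KRT18 averaged 1191 CPM with SGA360, 715 CPM with SGA315 and 1629 CPM with lovastatin alone. Other markers of the list ran the other way. The gut transcription factor CDX2 averaged 80.1 CPM with SGA360, 117 CPM with SGA315 and 75.8 CPM with lovastatin alone, and the brush border enzyme ALPI averaged 9.74 CPM with SGA360, 22.6 CPM with SGA315 and 7.57 CPM with lovastatin alone. Markers of leukocytes, endothelium and fibroblasts (7 genes, 2 tested) summed to 8.86 to 9.98 CPM with SGA360. Their sum was 7.56 to 9.99 CPM with SGA315 and 9.95 to 12.3 CPM with lovastatin alone. PDGFRB held most of that sum, averaging 8.06 CPM with SGA360, 6.54 CPM with SGA315 and 8.77 CPM with lovastatin alone. PECAM1 averaged 0.960 CPM with SGA360, 1.33 CPM with SGA315 and 1.58 CPM with lovastatin alone. PTPRC, CD3E, CDH5 and COL1A2 were at or near 0. The part of these marker differences in the results below was not tested. In bulk libraries of any kind, the number of cells of a type and the RNA per cell cannot be told apart.

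Of the 10 genes, 9 passed the filter on low counts and were tested with edgeR's quasi-likelihood test, adjusted by Benjamini-Hochberg over 14683 genes and called at an adjusted p under 0.05. CA9, a carbonic anhydrase of the cell surface that is among the genes most tied to hypoxia, had 0 counts in all 9 libraries. A count of 0 allows up to 3 counts, or 0.174 to 0.236 CPM depending on the library, counting error only, so CA9 was not detectable at this depth in any group. The other 9 genes changed by less than 2-fold in every comparison, a size reached by 4.59% of all tested genes with SGA360, 6.95% with SGA315 and 1.43% between the compounds. The 2 comparisons with lovastatin alone share its 3 libraries.

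With SGA360 added, PDK1, HIF1A, BNIP3, NDRG1 and VEGFA rose and P4HA1, EGLN3 and ADM fell, while EPAS1 did not pass the test. That is 5 higher and 3 lower of 9 tested, or 8 called, where 62.7% of all tested genes were called (31.4% higher and 31.4% lower). For 7 of the 9 the libraries of the groups did not overlap in CPM, against 66.3% of all genes. The median log2 fold change was 0.14, against 0.02 for all genes, and the median size was 0.18, against 0.25 for all genes.

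With SGA315 added, PDK1, NDRG1 and BNIP3 rose and ADM, EPAS1, P4HA1 and HIF1A fell, while VEGFA and EGLN3 did not pass the test. That is 3 higher and 4 lower, or 7 called of 9, where 69.2% of all tested genes were called (36.0% higher and 33.2% lower). Groups did not overlap for 7 of the 9, against 70.3% of all genes. The median log2 fold change was −0.13, against 0.04 for all genes, and the median size was 0.35, against 0.31 for all genes.

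Between the compounds, 1 pair at a matched dose and time, ADM, EPAS1, HIF1A and VEGFA were higher with SGA360 than with SGA315, and NDRG1 and BNIP3 were lower. That is 4 higher and 2 lower, or 6 called of 9, where 42.7% of all tested genes were called (21.8% higher and 20.9% lower). For 6 of the 9 the groups did not overlap, against 49.1% of all genes. PDK1, EGLN3 and P4HA1 did not pass the test of this difference. The split of all calls depended on scaling: 50.0% of calls were higher for SGA360, 52.0% for SGA315 and 51.1% for SGA360 against SGA315 with TMM scaling. When libraries were scaled by their totals alone, these shares were 67.4% for SGA360, 65.6% for SGA315 and 48.9% for SGA360 against SGA315, and the median of all genes was 0.14 for SGA360, 0.16 for SGA315 and −0.01 between the compounds.

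**Figure D1:**
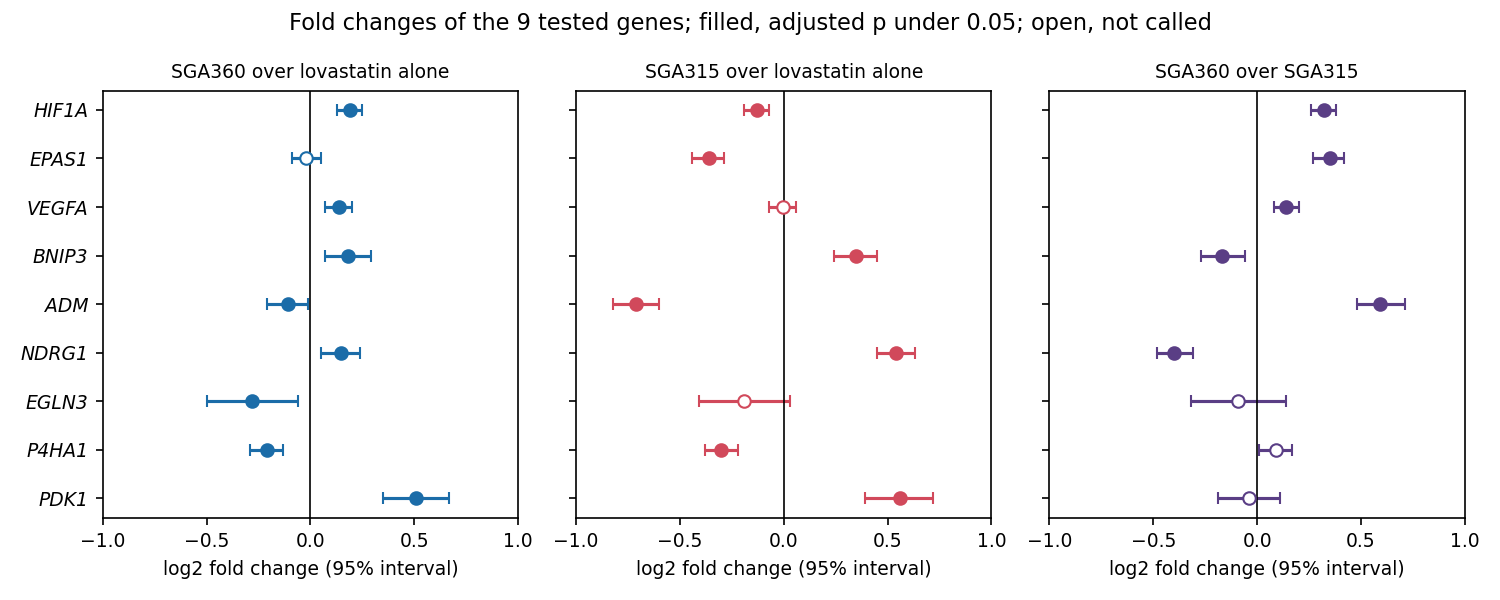
Log2 fold change (x axis) of the 9 tested genes (rows) in the 3 comparisons, with 95% intervals; filled points passed an adjusted p under 0.05 and open points did not. Over lovastatin alone, ADM with SGA315 (−0.71) and PDK1 with SGA315 (0.56) are the farthest from 0 on each side, in SGA360 over SGA315 ADM is farthest (0.59), and HIF1A is right of 0 with SGA360 and left of it with SGA315.

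HIF1A, the alpha subunit found in nearly all cells, had 303, 299.5 and 304 CPM in the SGA360 libraries, 250.2, 241 and 234 CPM in the SGA315 libraries and 263, 258 and 275 CPM with lovastatin alone. All SGA360 libraries lay above, and all SGA315 libraries below, every library with lovastatin alone. It averaged 302 ± 2.57 CPM with SGA360, 242 ± 8.19 CPM with SGA315 and 265 ± 8.70 CPM with lovastatin alone (SD, n = 3 each). HIF1A rose with SGA360 by a log2 fold change of 0.19 (SE 0.029, adjusted p = 4.82e-08). With SGA315 it was 0.13 lower on the log2 scale (log2 fold change −0.13, SE 0.030, adjusted p = 6.64e-05), a call that was lost under totals-only scaling (−0.01, adjusted p = 0.732; 1.33e-06 to 0.732 over all alternatives). The difference between the compounds was 0.32 (SE 0.029, adjusted p = 6.97e-15), and it stayed between 0.30 and 0.35 in all 17 alternatives. HIF1A was the one gene of the 10 called in opposite directions against lovastatin alone.

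Strand was not stated, and 3 antisense transcripts overlap HIF1A, so their reads cannot be told apart with certainty. HIF1A-AS2, which had 8192 counts over the 9 libraries against 36023 for HIF1A, averaged 72.0 ± 2.55 CPM with SGA360, 48.1 ± 7.84 CPM with SGA315 and 63.6 ± 2.06 CPM with lovastatin alone. It was called in the same directions as HIF1A, with log2 fold changes of 0.17 for SGA360 (adjusted p = 0.00246) and −0.40 for SGA315 (adjusted p = 4.59e-09). HIF1A-AS1 did not pass the test against lovastatin alone, and HIF1A-AS3 had 13 counts in all.

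EPAS1, the HIF2 alpha subunit, had 112, 113 and 118 CPM with SGA360, 91.8, 88.7 and 88.1 CPM with SGA315 and 114, 113 and 118 CPM with lovastatin alone. The SGA360 and lovastatin libraries overlapped, and the SGA315 libraries lay below all of them. With SGA315 the log2 fold change was −0.36 (SE 0.037, adjusted p = 1.08e-13), and between −0.40 and −0.24 over the alternatives. For SGA360 it was −0.02 (95% interval −0.09 to 0.05, adjusted p = 0.689), and totals-only scaling gave 0.10 (adjusted p = 0.0131). EPAS1 was higher with SGA360 than with SGA315 by 0.35 (SE 0.037, adjusted p = 2.49e-12).

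Per kilobase of transcript, which allows levels to be set side by side, HIF1A averaged 77.2 ± 0.657 CPM per kb with SGA360, 61.7 ± 2.09 with SGA315 and 67.7 ± 2.22 with lovastatin alone, while EPAS1 averaged 22.1 ± 0.575 with SGA360, 17.3 ± 0.394 with SGA315 and 22.3 ± 0.509 with lovastatin alone (SD, n = 3 each). The ratio of HIF1A to EPAS1 per kb was 3.57, 3.50 and 3.42 in the SGA360 libraries, 3.59, 3.59 and 3.50 in the SGA315 libraries and 3.03, 3.01 and 3.07 with lovastatin alone. Both ligands thus had a higher ratio than lovastatin alone in all of their libraries: with SGA360, HIF1A was higher and EPAS1 did not pass the test, and with SGA315, EPAS1 was lower by more than HIF1A. The ratio itself was not tested. HIF3A, the third alpha subunit, some forms of which restrain the others, was the scarcest at 3.74 ± 0.274 CPM per kb with SGA360, 3.68 ± 0.122 with SGA315 and 5.88 ± 0.123 with lovastatin alone.

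**Figure D2:**
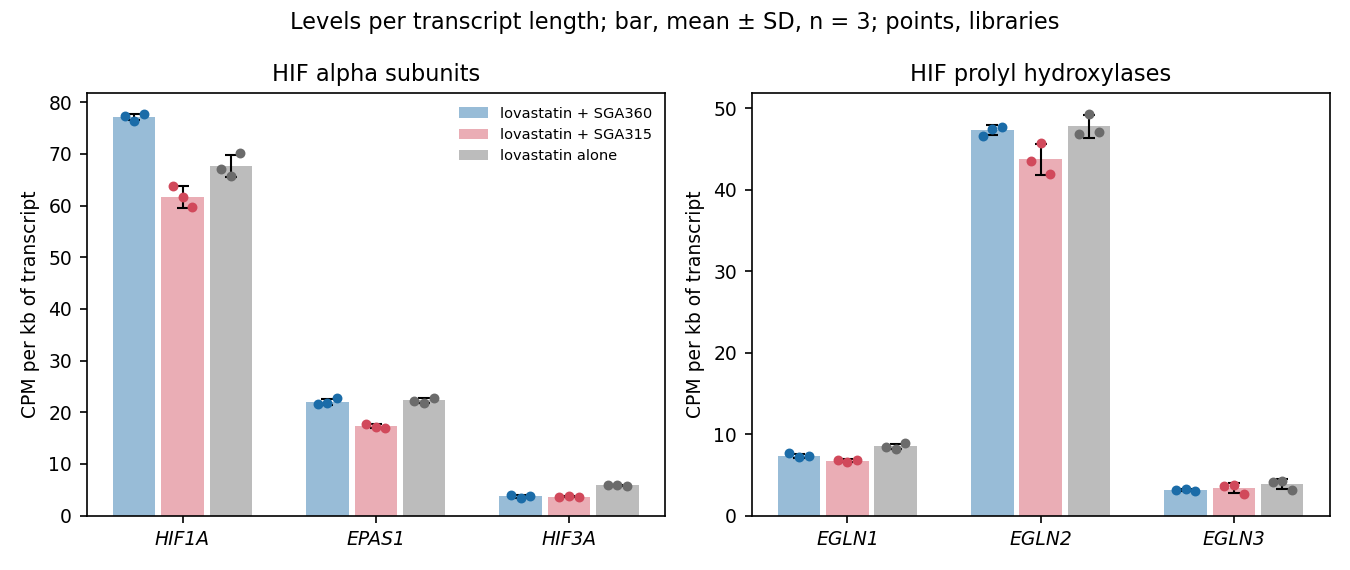
Mean level in CPM per kb of transcript (y axis, from 0) of the 3 HIF alpha subunits (left) and the 3 HIF prolyl hydroxylases (right) with SGA360, SGA315 and lovastatin alone; bars show means, error bars SD over 3 libraries and points the libraries. HIF1A and EGLN2 are the most abundant of their families per kb in every group.

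Among HIF partners and coactivators, 7 of 8 genes were tested. For this list and every list below, the share of all tested genes called was 62.7% with SGA360, 69.2% with SGA315 and 42.7% between the compounds. With SGA360, 3 were higher and 2 lower, and with SGA315, 3 were higher and 1 lower (4 higher and 1 lower for SGA360, and 5 higher and 1 lower for SGA315, under totals-only scaling, and 2 lower for SGA315 without SGA315 replicate 3). ARNT, the partner that HIF alpha subunits and AHR share, averaged 48.2 ± 2.30 CPM with SGA360, 52.9 ± 2.87 CPM with SGA315 and 36.6 ± 1.59 CPM with lovastatin alone (SD, n = 3 each). It rose with both, by 0.40 with SGA360 (SE 0.053, adjusted p = 6.18e-10) and by 0.53 with SGA315 (SE 0.052, adjusted p = 3.69e-14). BMAL1, a clock factor of the ARNT family, rose with SGA360 by 0.64 (adjusted p = 2.66e-10) and with SGA315 by 0.51 (adjusted p = 2.36e-07). HIF3A fell with SGA315 (log2 fold change −0.67, SE 0.092, adjusted p = 1.72e-09) and with SGA360 (−0.66, adjusted p = 2.74e-09). Between the compounds, 0 were higher and 3 lower with SGA360, among them CITED2, a negative regulator of HIF (−0.21, adjusted p = 0.00109), and the coactivator CREBBP (−0.10, adjusted p = 0.0135). CREBBP was not called under DESeq2 (adjusted p = 0.0866), with the sum over its entries (0.0949), without SGA360 replicate 3 (−0.07, adjusted p = 0.0969) or without SGA315 replicate 3 (−0.05, adjusted p = 0.22). The number lower was 1 under DESeq2, without SGA360 replicate 3 and without SGA315 replicate 3, and in the last of these 1 was higher.

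EGLN3, a prolyl hydroxylase that acts on HIF alpha and is itself a HIF target, was the scarcest of the 9 tested genes in CPM, with 400 counts in the SGA360 libraries, 391 in the SGA315 libraries and 455 with lovastatin alone. It had 8.49, 8.92 and 8.25 CPM with SGA360, 9.79, 10.3 and 7.18 CPM with SGA315 and 11.2, 11.6 and 8.62 CPM with lovastatin alone. Replicate 3 was the lowest library of each group, and all groups overlapped. EGLN3 was lower with SGA360 (log2 fold change −0.28, SE 0.11, adjusted p = 0.0228), a call that was lost under DESeq2 (adjusted p = 0.0728) and in 4 further alternatives, among them without lovastatin replicate 1 (−0.24, adjusted p = 0.0957) or replicate 2 (−0.21, adjusted p = 0.146). With SGA315 it did not pass the test (−0.19, 95% interval −0.41 to 0.03, adjusted p = 0.122), but it did without lovastatin replicate 3 (−0.33, adjusted p = 0.0112) and without SGA315 replicate 2 (−0.28, adjusted p = 0.0392).

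Per kb, EGLN2 was the main prolyl hydroxylase transcript at 47.3 ± 0.603 CPM per kb with SGA360, 43.7 ± 1.89 with SGA315 and 47.8 ± 1.36 with lovastatin alone. EGLN1, often described as the main oxygen sensor, was at 7.35 ± 0.250 CPM per kb with SGA360, 6.74 ± 0.168 with SGA315 and 8.49 ± 0.349 with lovastatin alone. EGLN3 was at 3.16 ± 0.125 CPM per kb with SGA360, 3.36 ± 0.617 with SGA315 and 3.87 ± 0.604 with lovastatin alone. The list of oxygen sensing and HIF degradation (11 genes, all tested) had 3 higher and 5 lower with SGA360 and 3 higher and 6 lower with SGA315, but 5 higher and 1 lower for SGA360, and 5 higher and 3 lower for SGA315, under totals-only scaling, so no common direction can be given for it. RBX1, the RING subunit of the VHL ubiquitin ligase, averaged 25.1 ± 1.00 CPM with SGA360, 21.9 ± 1.71 CPM with SGA315 and 37.3 ± 0.244 CPM with lovastatin alone. It fell with SGA360 (log2 fold change −0.56, adjusted p = 6.29e-13) and with SGA315 (−0.76, adjusted p = 1.58e-17). SIAH2, a ubiquitin ligase for EGLN proteins, rose with SGA360 by 0.31 (adjusted p = 4.25e-08) and with SGA315 by 0.37 (adjusted p = 2.58e-10).

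VEGFA, the growth factor that draws blood vessels towards tissue short of oxygen, had 172, 180.1 and 183 CPM with SGA360, 163, 163 and 159 CPM with SGA315 and 159, 169 and 159 CPM with lovastatin alone. The SGA360 libraries lay above all others, while those of SGA315 and lovastatin alone overlapped. VEGFA rose with SGA360 by 0.14 (SE 0.032, adjusted p = 0.000149). With SGA315 the log2 fold change was −0.002 (95% interval −0.07 to 0.06, adjusted p = 0.959), and totals-only scaling gave 0.12 (adjusted p = 0.001). Between the compounds VEGFA was 0.14 higher with SGA360 (SE 0.032, adjusted p = 0.000244). Its group means spread over 0.14 on the log2 scale, the least of the 9 tested genes.

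Of 9 other VEGF ligands and receptors 4 were tested, since VEGFC, VEGFD and the receptors FLT1, KDR and FLT4 were too low. With SGA360, 2 were higher and 2 lower, and with SGA315, 1 was higher and 1 lower. The number lower with SGA360 was 0 under totals-only scaling and 1 under DESeq2, without lovastatin replicate 1 or 2, and without SGA360 replicate 1 or 2, and the number higher with SGA315 was 2 under totals-only scaling. The coreceptor NRP2 averaged 76.8 ± 1.96 CPM with SGA360, 65.4 ± 1.28 CPM with SGA315 and 56.0 ± 2.87 CPM with lovastatin alone, and rose by 0.45 with SGA360 (adjusted p = 9.81e-15) and by 0.22 with SGA315 (adjusted p = 1.44e-05). NRP1, its relative, averaged 56.1 ± 1.43 CPM with SGA360, 43.4 ± 1.80 CPM with SGA315 and 64.6 ± 3.50 CPM with lovastatin alone and fell with SGA315 (log2 fold change −0.57, adjusted p = 5.56e-17). Its fall with SGA360 was smaller (−0.20, adjusted p = 9.84e-05) and was lost under totals-only scaling (−0.09, adjusted p = 0.09).

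ADM, which encodes the secreted peptide adrenomedullin, spread most between groups (0.70 between the highest and lowest group mean on the log2 scale). It had 45.4, 45.1 and 43.8 CPM with SGA360, 30.5, 30.1 and 28.3 CPM with SGA315 and 47.2, 51.9 and 46.5 CPM with lovastatin alone. All 3 SGA315 libraries were far below the rest, and the SGA360 libraries lay just under those with lovastatin alone. With SGA315, ADM was 1.63-fold lower (log2 fold change −0.71, SE 0.055, adjusted p = 2.16e-18), and between −0.75 and −0.58 in all 17 alternatives. With SGA360 it was barely lower (−0.11, SE 0.050, adjusted p = 0.0468), and the adjusted p was 0.316 without lovastatin replicate 2 (−0.06), 0.0731 without SGA360 replicate 3, 0.099 under DESeq2 and 0.96 under totals-only scaling (0.003), within 0.0145 to 0.96 over all alternatives. ADM was 1.51-fold higher with SGA360 than with SGA315 (log2 fold change 0.59, SE 0.055, adjusted p = 2.09e-14).

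Of the 6 relatives and receptor genes of adrenomedullin 3 were tested, and the receptor CALCRL had 0 counts in every library. With SGA360, 1 was higher and 1 lower, and with SGA315, 1 was higher and 2 lower. The related peptide gene ADM2 rose by 0.32 with SGA360 (adjusted p = 9.58e-08) and by 0.31 with SGA315 (adjusted p = 2.78e-07). RAMP2, a subunit that makes the receptor respond to adrenomedullin, averaged 19.8 ± 1.17 CPM with SGA360, 15.8 ± 0.380 CPM with SGA315 and 19.9 ± 1.43 CPM with lovastatin alone and fell with SGA315 (log2 fold change −0.33, adjusted p = 0.000129).

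**Figure D3:**
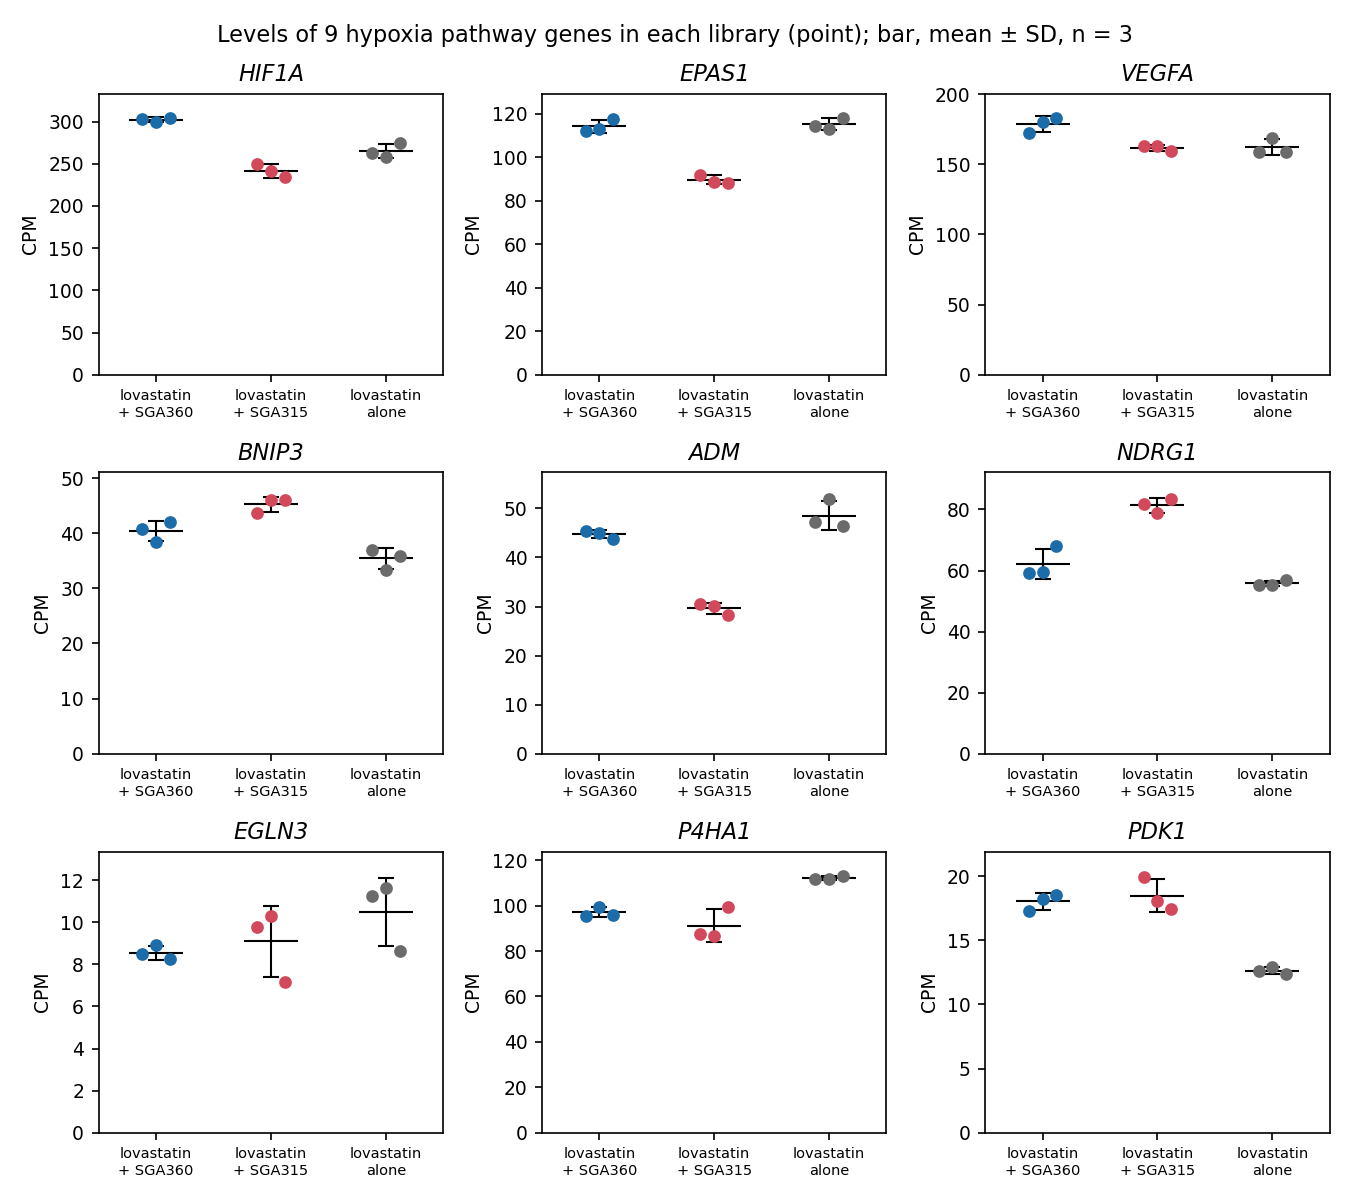
Level in CPM (y axis, from 0) of the 9 tested genes in each of the 9 libraries (points) with SGA360, SGA315 and lovastatin alone; horizontal bars are means and error bars SD over 3 libraries. ADM is lowest in the SGA315 libraries (28.3 to 30.5 CPM), PDK1 is lowest with lovastatin alone (12.4 to 12.9 CPM), and the EGLN3 groups overlap.

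PDK1 is a kinase that switches off pyruvate dehydrogenase. PDK1 had 17.3, 18.2 and 18.5 CPM with SGA360, 19.9, 18.1 and 17.5 CPM with SGA315 and 12.6, 12.9 and 12.4 CPM with lovastatin alone. The libraries of both ligands covered one range, above every library with lovastatin alone. PDK1 was 1.43-fold higher with SGA360 (log2 fold change 0.51, SE 0.081, adjusted p = 1.12e-07) and 1.47-fold higher with SGA315 (0.56, SE 0.082, adjusted p = 1.5e-08), and it was the largest change of the 9 with SGA360. The compounds did not differ by the test (−0.04, 95% interval −0.19 to 0.11, adjusted p = 0.676), an interval that leaves room for a difference in either direction. The values rest on 838 counts with SGA360, 792 with SGA315 and 550 with lovastatin alone. PDK1 overlaps RAPGEF4-AS1, which had 1 count, and PDK1-AS1 and a snoRNA gene. No counts were available for PDK1-AS1 and the snoRNA gene, so reads shared with them could not be assessed.

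Of 11 other genes of the pyruvate dehydrogenase complex and its regulators, 10 were tested. With SGA360, 2 were higher and 5 lower, and with SGA315, 1 was higher and 3 lower (2 higher and 4 lower for SGA360, and 6 higher and 2 lower for SGA315, under totals-only scaling). The number higher with SGA360 was 1 under DESeq2, without lovastatin replicate 1 or 3, and without SGA360 replicate 2 or 3. DLAT, the E2 enzyme of the complex, averaged 168 ± 1.51 CPM with SGA360, 161 ± 6.60 CPM with SGA315 and 251 ± 2.48 CPM with lovastatin alone. It fell with SGA360 (log2 fold change −0.58, adjusted p = 1.55e-26) and with SGA315 (−0.64, adjusted p = 6.82e-29). PDHA1, the E1 subunit that PDK1 phosphorylates, fell as well, by 0.52 with SGA360 (adjusted p = 1.95e-22) and by 0.53 with SGA315 (adjusted p = 8.55e-23).

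CA9 was not detected, but its companions in acid handling were. Of 9 genes of pH regulation and carbonic anhydrases, all tested, 1 was higher and 7 lower with SGA360, and 0 were higher and 7 lower with SGA315 (1 higher and 5 lower for SGA360, and 1 higher and 7 lower for SGA315, under totals-only scaling). The list's median log2 fold change was −0.37 with SGA360 (0.02 for all genes) and −0.49 with SGA315 (0.04 for all genes). SLC16A1, the lactate transporter MCT1, averaged 147 ± 3.74 CPM with SGA360, 137 ± 3.31 CPM with SGA315 and 243 ± 6.99 CPM with lovastatin alone, and fell with SGA360 (−0.72, adjusted p = 3.38e-31) and SGA315 (−0.83, adjusted p = 2.52e-34). BSG, its chaperone at the membrane, fell with SGA360 (−0.53, adjusted p = 8.98e-27) and SGA315 (−0.88, adjusted p = 2e-38). Between the compounds, 4 were higher and 0 lower with SGA360, among them BSG (0.35, adjusted p = 1.93e-16) and the bicarbonate transporter SLC4A7 (0.30, adjusted p = 4.63e-07).

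BNIP3, an outer membrane protein of mitochondria that marks them for autophagy, had 40.7, 38.4 and 42.1 CPM with SGA360, 43.6, 46.0 and 46.0 CPM with SGA315 and 37.0, 33.4 and 36.0 CPM with lovastatin alone. The 3 groups did not overlap, with SGA315 highest and lovastatin alone lowest. BNIP3 rose by 0.18 with SGA360 (SE 0.054, adjusted p = 0.00282) and by 0.35 with SGA315 (SE 0.054, adjusted p = 5.54e-08). The difference between the compounds, −0.17 (SE 0.052, adjusted p = 0.00726), was lost under DESeq2 (adjusted p = 0.0631) and without SGA360 replicate 2 (−0.13, adjusted p = 0.0823), within 0.00493 to 0.0823 over all alternatives. RefSeq names 46 pseudogenes of BNIP3, and the gene overlaps PPP2R2D, so its counts are uncertain. PPP2R2D, with 4458 counts against 5354 for BNIP3, had log2 fold changes of −0.03 with SGA360 (adjusted p = 0.672) and 0.03 with SGA315 (adjusted p = 0.639).

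Among 12 relatives of BNIP3 and mitophagy receptors, all tested, 6 were higher and 3 lower with SGA360, and 7 were higher and 2 lower with SGA315 (8 higher and 1 lower for SGA360, and 10 higher and 2 lower for SGA315, under totals-only scaling). Of all tested genes, 62.7% were called with SGA360 (31.4% higher) and 69.2% with SGA315 (36.0% higher). The list's median log2 fold change was 0.10 with SGA360 (0.02 for all genes) and 0.18 with SGA315 (0.04 for all genes). OPTN, an autophagy receptor for damaged mitochondria, averaged 199 ± 4.53 CPM with SGA360, 236 ± 10.9 CPM with SGA315 and 135 ± 7.60 CPM with lovastatin alone. It rose with SGA360 by 0.56 (adjusted p = 4.82e-23) and with SGA315 by 0.81 (adjusted p = 8.33e-32). BNIP3L, the closest relative of BNIP3, rose with SGA315 by 0.37 (SE 0.050, adjusted p = 1.37e-09) and with SGA360 by 0.24 (adjusted p = 2.28e-05). FUNDC1, a mitophagy receptor of hypoxia, fell with SGA360 (log2 fold change −0.62, adjusted p = 2.65e-10) and with SGA315 (−0.41, adjusted p = 3.24e-06). Between the compounds, 1 was higher and 7 lower with SGA360, and the number lower was 4 under DESeq2, 3 without SGA360 replicate 2, and 4 without SGA360 replicate 1, SGA315 replicate 1 or SGA315 replicate 3.

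NDRG1, a protein of stress and differentiation responses, had 59.2, 59.5 and 68.0 CPM with SGA360, 81.9, 78.7 and 83.5 CPM with SGA315 and 55.1, 55.3 and 56.9 CPM with lovastatin alone. The SGA315 libraries were highest, and the SGA360 libraries lay between them and lovastatin alone, with replicate 3 above the other 2. NDRG1 was 1.46-fold higher with SGA315 (log2 fold change 0.54, SE 0.045, adjusted p = 2.75e-17), between 0.52 and 0.66 in all 17 alternatives. Its rise with SGA360 was 0.15 (SE 0.047, adjusted p = 0.00473), and without SGA360 replicate 3 it was 0.07 and not called (adjusted p = 0.187, within 1.95e-06 to 0.187 over all alternatives). The compounds differed by −0.40 (SE 0.044, adjusted p = 9.91e-12). Of the 3 other NDRG genes, NDRG2 fell with SGA360 (−0.98, adjusted p = 6.45e-17) and SGA315 (−0.64, adjusted p = 9.81e-11), and NDRG3 rose with SGA360 (0.13, adjusted p = 0.00246) and SGA315 (0.27, adjusted p = 1.13e-08).

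P4HA1, the catalytic subunit of the prolyl 4-hydroxylase that lets collagen fold, had 95.6, 99.6 and 95.9 CPM with SGA360, 87.3, 86.6 and 99.6 CPM with SGA315 and 112, 112 and 113 CPM with lovastatin alone. Both ligands lay below every library with lovastatin alone, and SGA315 replicate 3 stood with the SGA360 libraries. P4HA1 fell with SGA360 (log2 fold change −0.21, SE 0.039, adjusted p = 3.15e-06) and with SGA315 (−0.30, SE 0.040, adjusted p = 4.57e-10). Between the compounds it was 0.09 higher with SGA360 (95% interval 0.01 to 0.17, adjusted p = 0.0505) and not called, but without SGA315 replicate 3 it was 0.16 (adjusted p = 0.000705, within 0.000705 to 0.286 over all alternatives). Of 9 other genes of collagen prolyl and lysyl hydroxylation 8 were tested, with 0 higher and 6 lower for SGA360 and 1 higher and 7 lower for SGA315 (1 higher and 5 lower for SGA360, and 1 higher and 6 lower for SGA315, under totals-only scaling). The 1 higher with SGA315 was lost without lovastatin replicate 1 or SGA315 replicate 1. Of all tested genes, 31.4% were lower with SGA360 and 33.2% with SGA315. PLOD1, a lysyl hydroxylase, averaged 105 ± 4.09 CPM with SGA360, 92.7 ± 1.70 CPM with SGA315 and 165 ± 1.91 CPM with lovastatin alone, and fell with SGA360 (−0.65, adjusted p = 9.77e-27) and SGA315 (−0.83, adjusted p = 6.12e-32). PLOD3, another lysyl hydroxylase, fell with SGA360 (−0.60, adjusted p = 2.82e-23) and SGA315 (−0.56, adjusted p = 5.97e-22).

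The 30 further hypoxia targets, 29 of them tested, went both ways: 11 were higher and 9 lower with SGA360, 11 were higher and 10 lower with SGA315, and 8 were higher and 6 lower with SGA360 than with SGA315. Their median log2 fold change was −0.02 with SGA360 (0.02 for all genes), −0.06 with SGA315 (0.04 for all genes) and 0.02 between the compounds (−0.01 for all genes). Under totals-only scaling, 12 were higher and 7 lower with SGA360, with a median of 0.10 (0.14 for all genes). With SGA315 that scaling gave 14 higher and 8 lower, with a median of 0.07 (0.16 for all genes). P4HA2, PLOD1 and PLOD2 are in this list and in that of collagen hydroxylation. LOX, a lysyl oxidase that cross-links collagen, averaged 19.3 ± 1.22 CPM with SGA360, 14.3 ± 0.850 CPM with SGA315 and 5.38 ± 0.203 CPM with lovastatin alone. LOX rose by 1.84 with SGA360 (SE 0.098, adjusted p = 3.66e-26) and by 1.41 with SGA315 (adjusted p = 4.76e-19). SLC2A3, the glucose transporter GLUT3, averaged 1885 ± 118 CPM with SGA360, 947 ± 51.1 CPM with SGA315 and 2102 ± 24.9 CPM with lovastatin alone. It fell with SGA315 (log2 fold change −1.15, adjusted p = 1.3e-42) and less with SGA360 (−0.16, adjusted p = 8.44e-06). SLC2A3 was higher with SGA360 than with SGA315 by 0.99 (adjusted p = 1.03e-37), with 3 pseudogenes named in RefSeq.

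Of 9 genes of iron uptake and storage, several of them EPAS1 targets in the gut, 4 were higher and 4 lower with each ligand (5 higher and 3 lower for SGA360, and 4 higher and 2 lower for SGA315, under totals-only scaling). The number higher with SGA315 was 2 without lovastatin replicate 2 or SGA315 replicate 1. TFRC, the transferrin receptor, averaged 555 ± 9.50 CPM with SGA360, 335 ± 6.85 CPM with SGA315 and 829 ± 2.85 CPM with lovastatin alone. It fell with SGA360 (log2 fold change −0.58, adjusted p = 2.33e-30) and with SGA315 (−1.31, adjusted p = 2.41e-49), and it was 0.73 higher with SGA360 than with SGA315 (adjusted p = 1.07e-33). NCOA4, the receptor that delivers ferritin to autophagy, fell with SGA360 (−0.56, adjusted p = 3.71e-27) and less with SGA315 (−0.13, adjusted p = 4.41e-05). FTH1, the ferritin heavy chain, rose with SGA315 by 0.41 (adjusted p = 7.32e-22) and with SGA360 by 0.26 (adjusted p = 4e-13). RefSeq names 27 pseudogenes of FTH1, so its counts are uncertain.

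**Figure D4:**
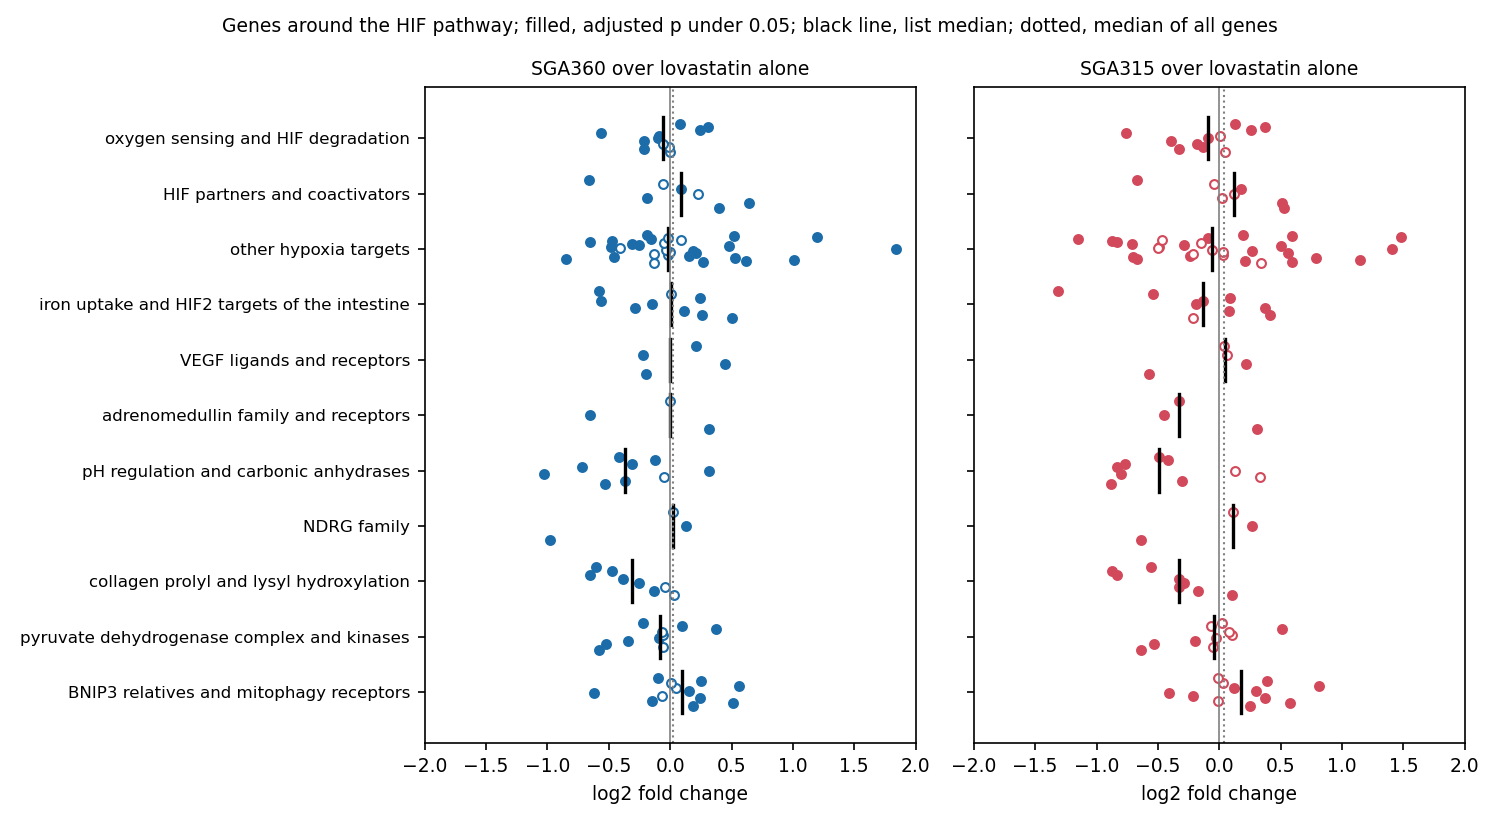
Log2 fold change (x axis) of every tested gene in 11 lists around the HIF pathway (rows), with SGA360 (left) and SGA315 (right) over lovastatin alone; filled points passed an adjusted p under 0.05, black lines are list medians and the dotted line is the median of all genes. The medians of pH regulation (−0.37 with SGA360, −0.49 with SGA315) and of collagen hydroxylation (−0.31 with SGA360, −0.33 with SGA315) lie left of 0 in both panels, and the other hypoxia targets spread on both sides.

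ADM, NDRG1 and PDK1 spread most between groups, and for each the 3 genes with the most similar pattern were sought among 11518 genes of at least 5 CPM, by the root mean square difference of centred log2 CPM over the 9 libraries. SREBF1 (0.0364), NEURL1B (0.0457) and ENC1 (0.0530) lay closest to ADM, where the median gene lay at 0.330. For NDRG1 they were MBTD1 (0.0245), GCC2 (0.0344) and SEC24A (0.0444), against a median of 0.272. For PDK1 they were C17orf75 (0.0451), WBP1 (0.0452) and TJP3 (0.0504), against a median of 0.279.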

How the data were processed

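RNA of 9 Caco-2 libraries (3 groups of 3, grouped and numbered from the labels) was sequenced as poly(A)-enriched libraries, per the labels' protocols. The authors deposited raw counts per RefSeq transcript and library, per the file headers. The submitters' processing notes name TopHat2 2.0.13, HTSeq 0.5.4p3 and hg19. Strand setting, annotation release and filters: not given in the sources used here. Hence overlapping and antisense genes may share reads, and reads that map to several places may be missing from genes with pseudogenes.

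Of 65325 entries, 64340 were named from RefSeq (GRCh38.p14) and 571 from GENCODE 29; 414 unnamed ones (0.224% of counts) were left out of library sizes and tests. The entry with the highest total over 9 libraries stood for each gene, since entries of a gene repeat reads. Of 23 sets of genes with identical counts (at least 100), 1 gene each was kept and 43 were dropped, which left 27693. The column names gave the samples, and 0 columns of sample values were left unused.

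The test was edgeR 4.0.16 under R 4.3.3 (quasi-likelihood F test, TMM, filterByExpr with minimum count 10 and total 15, all 9 libraries in 1 fit, no covariate) on these counts, adjusted by Benjamini-Hochberg over 14683 genes. CPM are these counts scaled with TMM factors, with mean ± SD over 3 libraries. Per-kb levels divide by the GENCODE transcript length of the entry used. Log2 fold changes are ligand over lovastatin alone, or SGA360 over SGA315. Likeness used log2(CPM + 0.5). A floor of 3 counts covers counting error only.

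The members and the 11 gene lists were chosen with earlier results of these data known. Beyond the 10 members, genes were named from the 2 with the smallest p per list and comparison. OS9, ELOB, ZNF395, ADM5, P3H2, PDPR, PDP2 and GABARAPL1 met this rule but were not described. The 3 most alike genes of the 3 members that spread most were also named. The EGLN1 and EGLN2 levels, genes overlapping a member, cell type markers and genes too low to test were added after their values were seen. The test was checked on simulated data drawn with the fitted spread and with 200 genes changed, far fewer than were called here. It recovered 90 to 92% of 2-fold changes and 63 to 70% of 1.25-fold changes. False calls were 4.3% of calls for SGA360, 6.4% for SGA315 and 6.0% between the compounds. Alternatives were RLE scaling, scaling to totals only, DESeq2 1.42.0, no low-count filter, the compared groups only, a replicate block, the lowest accession, the sum over entries, and leaving out each library.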

Additional observations from a re-analysis of the deposited data

How the results depend on the processing

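Over 17 alternatives for each of the 9 tested genes in 3 comparisons, 433 values kept their direction and side of the threshold, 13 lost the call, 6 gained it and 7 changed sign. The changes above 0.5 in size (log2), those of ADM and NDRG1 with SGA315, of PDK1 with either ligand and of ADM between the compounds, kept their calls in every one. With scaling to totals only, the log2 fold change was 0.10 for EPAS1 and 0.003 for ADM with SGA360, and 0.12 for VEGFA with SGA315. When a library was left out, VEGFA with SGA315 ranged between −0.03 and 0.02 (0.02 without lovastatin replicate 2, 0.009 without SGA315 replicate 3). Between the compounds, EGLN3 ranged between −0.23 and 0.002 (0.002 without SGA315 replicate 2) and PDK1 between −0.08 and 0.02 (0.02 without SGA315 replicate 1). All of these but EPAS1 and VEGFA under totals only were uncalled.

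Of the 9 tested genes, the number lower with SGA360, 3 as reported, was 1 with scaling to totals only, under DESeq2 and with the sum over all entries, and 1 to 3 when a library was left out (1 without lovastatin replicate 2). The number lower with SGA360 than with SGA315, 2 as reported, was 1 under DESeq2 and 1 to 2 when a library was left out (1 without SGA360 replicate 2). The calls of ADM and EGLN3 as lower with SGA360 therefore depend on the scaling, the test, the entries counted over all genes and single libraries. ADM has only 1 entry, so its own counts were unchanged by the sum over entries (−0.12, adjusted p = 0.0816). Totals-only scaling shifted the median of all genes, and the cause of the other changes was not tested.

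Same-numbered libraries deviated together only weakly: the 9 correlations of their deviations were all positive, at 0.014 to 0.088, and 0 exceeded 0.1. Counting noise lowers such correlations, so they cannot show whether same-numbered libraries were handled together. With the replicate block, 5 genes were higher and 3 lower with SGA360, 3 and 4 with SGA315, and 5 and 2 between the compounds. P4HA1 became called between the compounds (0.10, adjusted p = 0.0301). Over all genes, 9341 were called with SGA360, 10276 with SGA315 and 6443 between the compounds, against 9212, 10161 and 6266 without the block.

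In the lists, 57 of the counts, those above included, moved by over 1.5 times, all of them counts of 7 or fewer genes. With scaling to totals only, partners lower with SGA360 were 1 in place of 2, VEGF genes lower were 0 in place of 2, mitophagy genes lower were 1 in place of 3, NDRG genes higher with SGA315 were 2 in place of 1 and VEGF genes higher were 2 in place of 1 (also without a filter). Between the compounds, collagen genes lower were 1 in place of 0. Under DESeq2, with SGA360, VEGF genes lower were 1 in place of 2, pH genes higher 0 in place of 1 (also with the lowest accession) and pyruvate dehydrogenase genes higher 1 in place of 2. Between the compounds DESeq2 gave 1 partner lower in place of 3, 0 VEGF genes in place of 1 and 4 mitophagy genes in place of 7 (4 also with the sum over entries). Leaving out 1 library moved a list count by 4 at most (mitophagy genes lower between the compounds, 3 in place of 7). With 3 libraries a group, the 95% intervals bound what an uncalled gene can show, and EGLN3, the scarcest of the 9, had the widest.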
